A study of Homo sapiens with 24 samples.

Results

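NELFB, SUPT5H, CTR9 and CDC73 encode subunits of the complexes that hold RNA polymerase II near promoters and then travel with it through genes, and the output of these genes was followed across 12 groups of DLD1 cells. The genes were chosen by symbol from a set of 10 named subunits, and 4 of the 10 are listed in the deposited tables, among 6603 genes listed in all 24 libraries. NELFA, NELFCD, NELFE, SUPT4H1, SUPT6H and PAF1 are not listed there under these or older symbols and were not analysed here. The assay was TT-seq, a short pulse of a uridine analogue that marks RNA as it is made, followed by purification and sequencing of the marked RNA. DLD1 is a human colorectal adenocarcinoma line. A tag knocked in at the cells' own INTS11 or INTS8 gene lets the small molecule dTAG13 send the tagged protein to degradation. INTS11 is the RNA endonuclease of Integrator and INTS8 joins the phosphatase PP2A to Integrator, a complex that ends transcription close to promoters.

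In batch 1, INTS11-dTAG cells, INTS8-dTAG cells and INTS8-dTAG cells that also carry ectopic INTS8-N211del (here the N211del line) were each given dTAG13 or the vehicle DMSO for 3 h. In batch 2, the INTS11-dTAG and N211del lines were taken at 0, 1 and 3 h of dTAG13, and 0 h served as the control, with no vehicle group in that batch. Each group held 2 libraries, described by the submitters as biological duplicates. All groups are tagged DLD1 cells and none is an untagged control, so an effect of dTAG13 itself cannot be told apart from loss of the tagged protein. The labels do not say what INTS8-N211del lacks, which promoter drives it, or whether a line is a single clone.

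NELF, of which NELFB is a subunit, holds RNA polymerase II in a paused state shortly after it starts. DSIF, whose large subunit is SUPT5H (SPT5), takes part in this pause and, once the kinase P-TEFb has phosphorylated it, stays on the polymerase as an elongation factor while NELF leaves. The PAF complex joins the elongating polymerase and supports passage through chromatin and histone modification. CTR9 is its scaffold subunit, and CDC73 (parafibromin) is the subunit known as a tumour suppressor of the parathyroid.

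The promoters below, from 250 bases before to 50 after the start, show the DNA from which 3 of these genes are transcribed. They are given because NELFB and CTR9 moved in opposite directions in the results, but any link between these letters and those changes was not tested. They come from RefSeq on GRCh38.p14, matched by symbol, and all 3 lie on the plus strand. Capitals mark matches, on either strand, to the GC box written GGGCGG, the TATA box written TATAAA, the ETS family site CCGGAAG, the NRF1 core GCATGCGC, the YY1 site AAGATGGCG, the E box written CACGTG and the CRE core written TGACG.
NELFB chr9:137255077-137255376: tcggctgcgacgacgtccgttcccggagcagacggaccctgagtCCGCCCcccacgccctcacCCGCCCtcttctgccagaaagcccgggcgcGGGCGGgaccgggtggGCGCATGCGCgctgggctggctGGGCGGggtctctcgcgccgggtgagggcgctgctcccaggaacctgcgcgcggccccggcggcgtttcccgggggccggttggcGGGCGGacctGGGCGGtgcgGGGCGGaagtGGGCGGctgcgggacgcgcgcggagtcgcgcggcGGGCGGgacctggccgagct
SUPT5H chr19:39445332-39445631: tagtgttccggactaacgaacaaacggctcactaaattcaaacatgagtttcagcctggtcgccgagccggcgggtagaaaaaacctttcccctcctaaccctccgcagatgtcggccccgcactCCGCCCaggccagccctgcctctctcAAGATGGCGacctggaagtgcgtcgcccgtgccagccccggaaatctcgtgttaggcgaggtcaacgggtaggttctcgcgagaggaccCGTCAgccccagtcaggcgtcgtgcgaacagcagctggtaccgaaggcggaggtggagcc
CTR9 chr11:10750996-10751295: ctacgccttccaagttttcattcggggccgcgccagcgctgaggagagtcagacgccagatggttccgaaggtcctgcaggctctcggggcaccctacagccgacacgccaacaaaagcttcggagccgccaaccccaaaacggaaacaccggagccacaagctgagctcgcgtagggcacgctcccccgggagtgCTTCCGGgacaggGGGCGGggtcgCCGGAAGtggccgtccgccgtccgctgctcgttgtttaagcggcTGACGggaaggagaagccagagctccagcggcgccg
The NELFB promoter was 79.3% G or C and held 9 GC boxes and a pair of NRF1 core matches that overlap each other on opposite strands. The SUPT5H promoter was 61.7% G or C and held 1 GC box, 1 YY1 match and 1 CRE core. The CTR9 promoter was 66.3% G or C and held 1 GC box, 2 ETS matches on opposite strands and 1 CRE core. None of the 3 held the TATA box or the E box. Of 35116 promoters of the same length, 44.9% held a GC box, 10.3% an ETS match, 3.05% an NRF1 core, 1.75% the YY1 letters, 24.6% a CRE core, 7.26% an E box and 11.53% a TATA box. Among the 8618 of these that belong to genes listed here, the shares were 64.6% for the GC box, 14.0% for the ETS site, 4.14% for the NRF1 core, 2.8% for the YY1 site, 29.5% for the CRE core, 9.09% for the E box and 6.67% for the TATA box. These matches describe letters in these windows only. SUPT5H has a second promoter entry, and CDC73 is named only.

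The deposited values are a signal per kilobase of gene, introns included, and are called units per kb below. NELFB (chromosome 9, ENSG00000188986) spans 18.2 kb, SUPT5H (chromosome 19, ENSG00000196235) 31 kb, CTR9 (chromosome 11, ENSG00000198730) 28.5 kb and CDC73 (chromosome 1, ENSG00000134371) 132.7 kb. RefSeq places SNORD175 within SUPT5H, and B3GALT2 and MIR1278 within CDC73. The kit was stranded per the labels, but no source used here says that strand entered the counting, so reads of such overlapping genes cannot be separated. Whole-number units summed to 5517104 to 8119831 per library in batch 1 and to 8709275 to 11266619 in batch 2. The 4 genes were listed in every library, with at least 237 units behind a value (NELFB) and at most 5330 (CDC73). If units are taken as counts, counting error of a single value ran from 1.37% to 6.5%. Of 15 colorectal epithelial markers 13 were listed, with summed levels of 2149 to 3603 units per kb and a median of 0 for the lowest of them. Of 12 markers of other cell types only COL1A1 was listed, at 0 to 0.318. Only part of all genes is listed, so absence from the list does not show that a marker was silent. The degron acts on protein, so RNA values do not check the loss of INTS11 or INTS8.

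Per kb, SUPT5H had the highest median level over the 12 libraries of batch 1, 27.3, followed by CDC73 at 26.6, CTR9 at 23.2 and NELFB at 17.8. In batch 2 the medians were 27.7 for SUPT5H, 22.2 for CDC73, 19.9 for CTR9 and 17.1 for NELFB. The ranges of neighbours in this order overlapped in both batches. CTR9 varied most, from 15.8 to 38.5 units per kb in batch 1, and in its highest library it stood above 84.0% of listed genes.

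**Figure D1:**
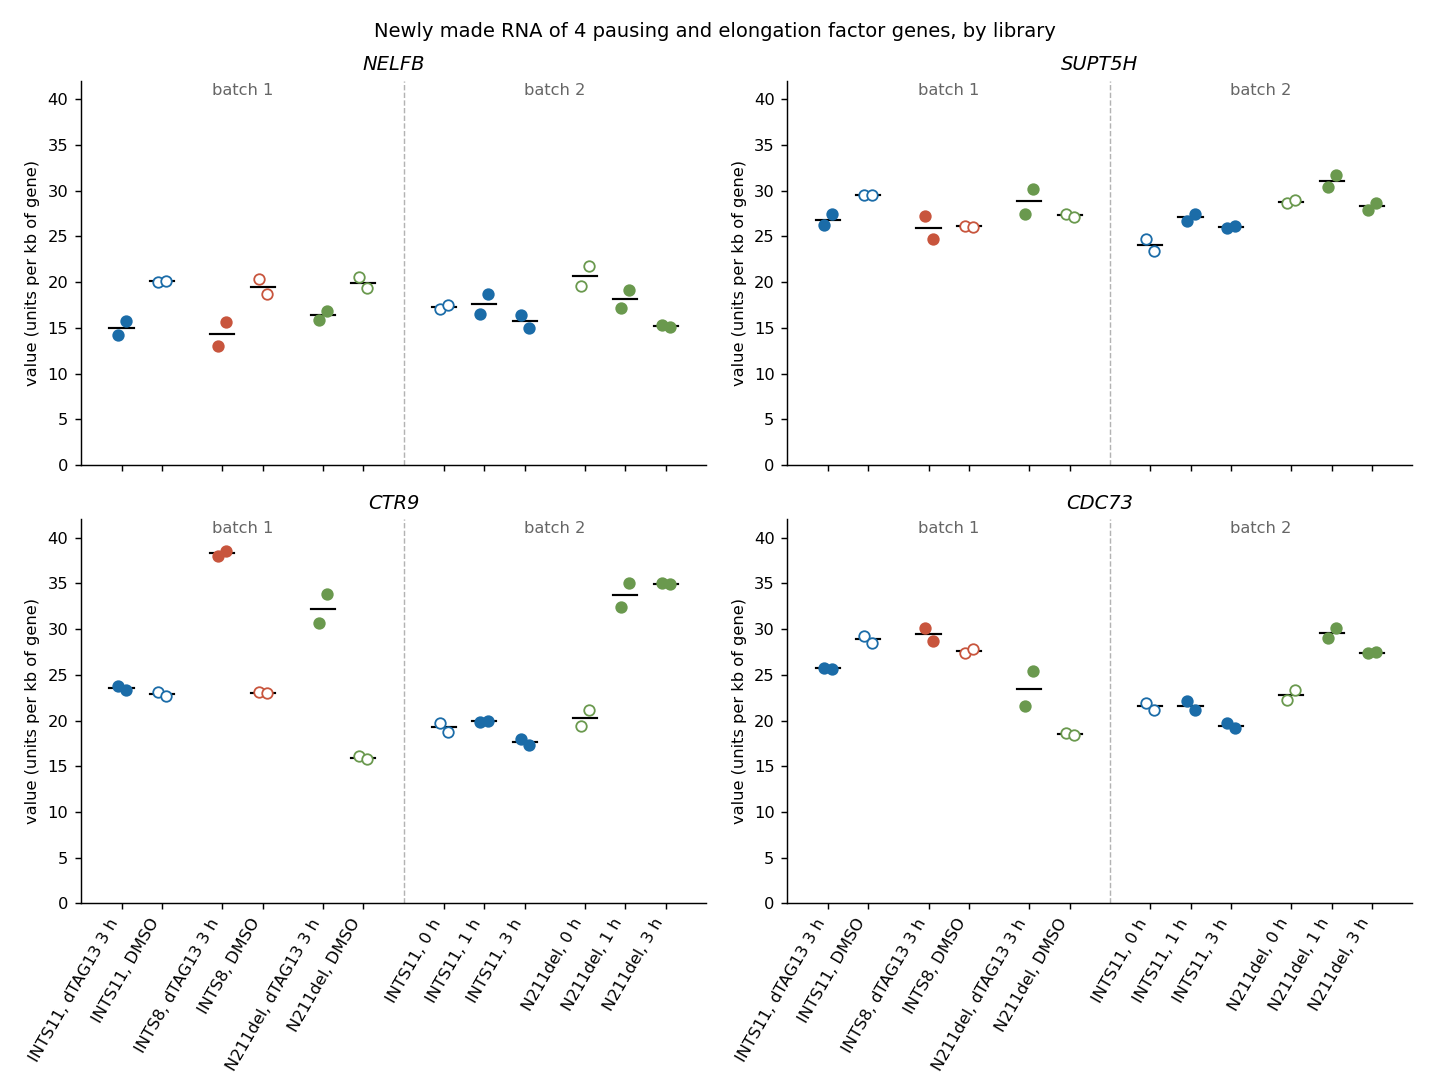
Level of each gene (y axis, units per kb of gene) in each library of the 12 groups (x axis), with open points for DMSO and 0 h, filled points for dTAG13, colours for the lines and bars for group means. CTR9 lies at 30.6 units per kb or more in the treated INTS8 and N211del libraries of both batches and at 23.8 or less in all others.

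NELFB, the pausing factor gene, was lower after dTAG13 in all 3 lines of batch 1 and in the N211del line at 3 h of batch 2. It was the only one of the 4 whose log2 fold change lay below the median of all genes in all 7 treatment comparisons. In INTS11-dTAG cells it had 14.2 and 15.7 units per kb after 3 h of dTAG13, against 20.04 and 20.1 in DMSO. The treated libraries lay below both controls, with a log2 fold change of -0.42 ± 0.09 (SE, limma adjusted p = 0.000793); 19.8% of all genes tested were called lower in this comparison and 19.4% higher. In such bulk libraries, fewer cells with a transcript and less of it per cell cannot be told apart. In INTS8-dTAG cells NELFB had 13.0 and 15.6 after dTAG13, against 20.3 and 18.7 in DMSO. It fell by 0.45 ± 0.09 on the log2 scale (limma adjusted p = 0.000223), where 21.0% of genes were called lower. The N211del line had 15.9 and 16.9 units per kb with dTAG13, against 20.5 and 19.3 with DMSO, a log2 fold change of -0.28 ± 0.09 (limma adjusted p = 0.0105), where 7.1% of genes were called lower. With libraries centred on their medians the decreases were -0.39 (limma adjusted p = 0.0129), -0.55 (0.0013) and -0.54 (0.00166). On the deposited scale the call in the N211del line was lost without replicate 1 of the N211del DMSO group (adjusted p = 0.0857 by limma), without replicate 1 of its dTAG13 group (0.0747), and when replicate pairs that agreed within counting noise were averaged (0.0839).

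Over the time course in the N211del line NELFB had 19.6 and 21.7 units per kb at 0 h, 17.2 and 19.1 at 1 h, and 15.3 and 15.1 at 3 h. All libraries at 1 h lay below those at 0 h, and those at 3 h lay lower still. The change at 1 h missed the threshold, at -0.19 ± 0.08 (limma adjusted p = 0.0542; 95% interval -0.36 to -0.01), where 4.92% of genes were called lower. It passed without replicate 1 of 0 h (0.0317), without replicate 2 of 1 h (0.0280), and without either INTS11-dTAG library of 1 h (0.0397 and 0.0398), while without replicate 2 of 0 h it was -0.11 (0.295) and without replicate 1 of 1 h -0.11 (0.307). With libraries centred it was -0.54 (limma adjusted p = 0.000442). The change at 3 h was -0.44 ± 0.08 (limma adjusted p = 0.000834), with 13.8% of genes called lower and only 3.42% of genes at a smaller log2 fold change. In INTS11-dTAG cells of the same batch NELFB had 17.1 and 17.5 at 0 h, 16.5 and 18.7 at 1 h, and 16.4 and 15.01 at 3 h. Neither time passed there: 0.02 ± 0.08 at 1 h (limma adjusted p = 0.81) and -0.14 ± 0.08 at 3 h (0.162; 95% interval -0.31 to 0.04).

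SUPT5H, the DSIF gene, changed with treatment by at most 0.17 on the log2 scale of the deposited values. Its group means stayed between 24.1 and 31.1 units per kb in all 12 groups. In batch 1 it had 26.3 and 27.4 after dTAG13 in INTS11-dTAG cells, against 29.6 and 29.6 in DMSO (-0.14 ± 0.07, limma adjusted p = 0.142). In INTS8-dTAG cells it had 27.3 and 24.7 after dTAG13, against 26.2 and 26.0, and the groups overlapped (-0.01 ± 0.07, limma adjusted p = 0.93). In the N211del line it had 27.5 and 30.2 after dTAG13, against 27.5 and 27.1 (0.08 ± 0.07, limma adjusted p = 0.392). None of the 3 passed the test. In batch 2 SUPT5H had 24.7 and 23.5 units per kb at 0 h, 26.7 and 27.5 at 1 h and 25.9 and 26.2 at 3 h in INTS11-dTAG cells, so that both treated times lay above 0 h. The log2 fold changes were 0.17 ± 0.04 at 1 h (limma adjusted p = 0.00488; 46.0% of genes called higher) and 0.11 ± 0.04 at 3 h (0.0333; 36.0% called higher). The N211del line had 28.6 and 28.9 at 0 h, 30.4 and 31.7 at 1 h and 27.9 and 28.7 at 3 h, with 0.11 ± 0.04 at 1 h (limma adjusted p = 0.0278; 66.0% called higher) and -0.02 ± 0.04 at 3 h (0.625).

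Whether these small changes of SUPT5H passed depended on the scale of the libraries. The median log2 fold change of all genes was 0.16 at 1 h and 0.08 at 3 h in INTS11-dTAG cells of batch 2, and 0.31 and 0.18 in the N211del line. With each library centred on its median, SUPT5H changed by 0.01 (limma adjusted p = 0.758) and 0.06 (0.194) in INTS11-dTAG cells, and was called lower in the N211del line at 1 h (-0.24, 0.000445) and 3 h (-0.22, 0.00073). The same centring gave called decreases in batch 1, of -0.11 in INTS11-dTAG cells (limma adjusted p = 0.0485), -0.11 in INTS8-dTAG cells (0.029) and -0.18 in the N211del line (0.00301). On the deposited scale the call at 3 h in INTS11-dTAG cells was lost without replicate 2 of 0 h (limma adjusted p = 0.182), replicate 1 of 3 h (0.0864) or replicate 2 of 3 h (0.136). The call at 1 h in the N211del line was lost without replicate 1 of 0 h (0.102), replicate 2 of 0 h (0.0621) or replicate 2 of 1 h (0.177).

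CTR9, the PAF scaffold gene, rose in both lines that lose tagged INTS8 and passed the test in neither batch of the line that loses INTS11. After 3 h of dTAG13 INTS8-dTAG cells had 38.0 and 38.5 units per kb, against 23.1 and 23.0 in DMSO. The gap between these groups was far wider than the spread within either. CTR9 averaged 38.3 ± 0.37 with dTAG13 and 23.1 ± 0.12 with DMSO (SD, n = 2 each), 1.66-fold higher, with a log2 fold change of 0.73 ± 0.07 (limma adjusted p = 1.75e-08); 34.6% of genes were called higher in this comparison. The N211del line had 30.6 and 33.9 units per kb with dTAG13, against 16.1 and 15.8 with DMSO. This was 2.01-fold higher, a log2 fold change of 1.01 ± 0.07 (limma adjusted p = 9.56e-11), where 48.5% of genes were called higher and the median gene changed by 0.21. CTR9 stood above 91.4% of genes in this comparison, and with libraries centred its log2 fold change was 0.75 (limma adjusted p = 7.47e-07). In INTS11-dTAG cells it had 23.8 and 23.3 after dTAG13, against 23.1 and 22.7, a log2 fold change of 0.04 ± 0.07 (limma adjusted p = 0.669; 95% interval -0.11 to 0.19).

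In the time course the rise of CTR9 was present at 1 h. In the N211del line it had 19.3 and 21.1 units per kb at 0 h, 32.4 and 35.0 at 1 h, and 35.0 and 35.0 at 3 h. All 4 treated libraries lay well above both at 0 h. The log2 fold changes against 0 h were 0.73 ± 0.05 at 1 h (limma adjusted p = 1.4e-06) and 0.79 ± 0.05 at 3 h (1.1e-06), and 0.38 and 0.59 with libraries centred (4.91e-05 and 3.56e-06). Between 1 and 3 h it changed by 0.05 ± 0.05 (limma adjusted p = 0.454), against -0.13 for the median gene, and with libraries centred by 0.21 (0.00988). INTS11-dTAG cells had 19.7 and 18.8 at 0 h, 19.9 and 19.96 at 1 h, and 18.0 and 17.3 at 3 h. Their log2 fold changes were 0.05 ± 0.05 at 1 h (limma adjusted p = 0.455) and -0.12 ± 0.05 at 3 h (0.073), below the median gene at both times. The decrease at 3 h passed with libraries centred (-0.18, limma adjusted p = 0.00545) and without replicate 1 or replicate 2 of the N211del line at 0 h (0.0485 and 0.0484). The 4 increases of CTR9 passed under each of the 10 other settings and with each library left out.

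**Figure D2:**
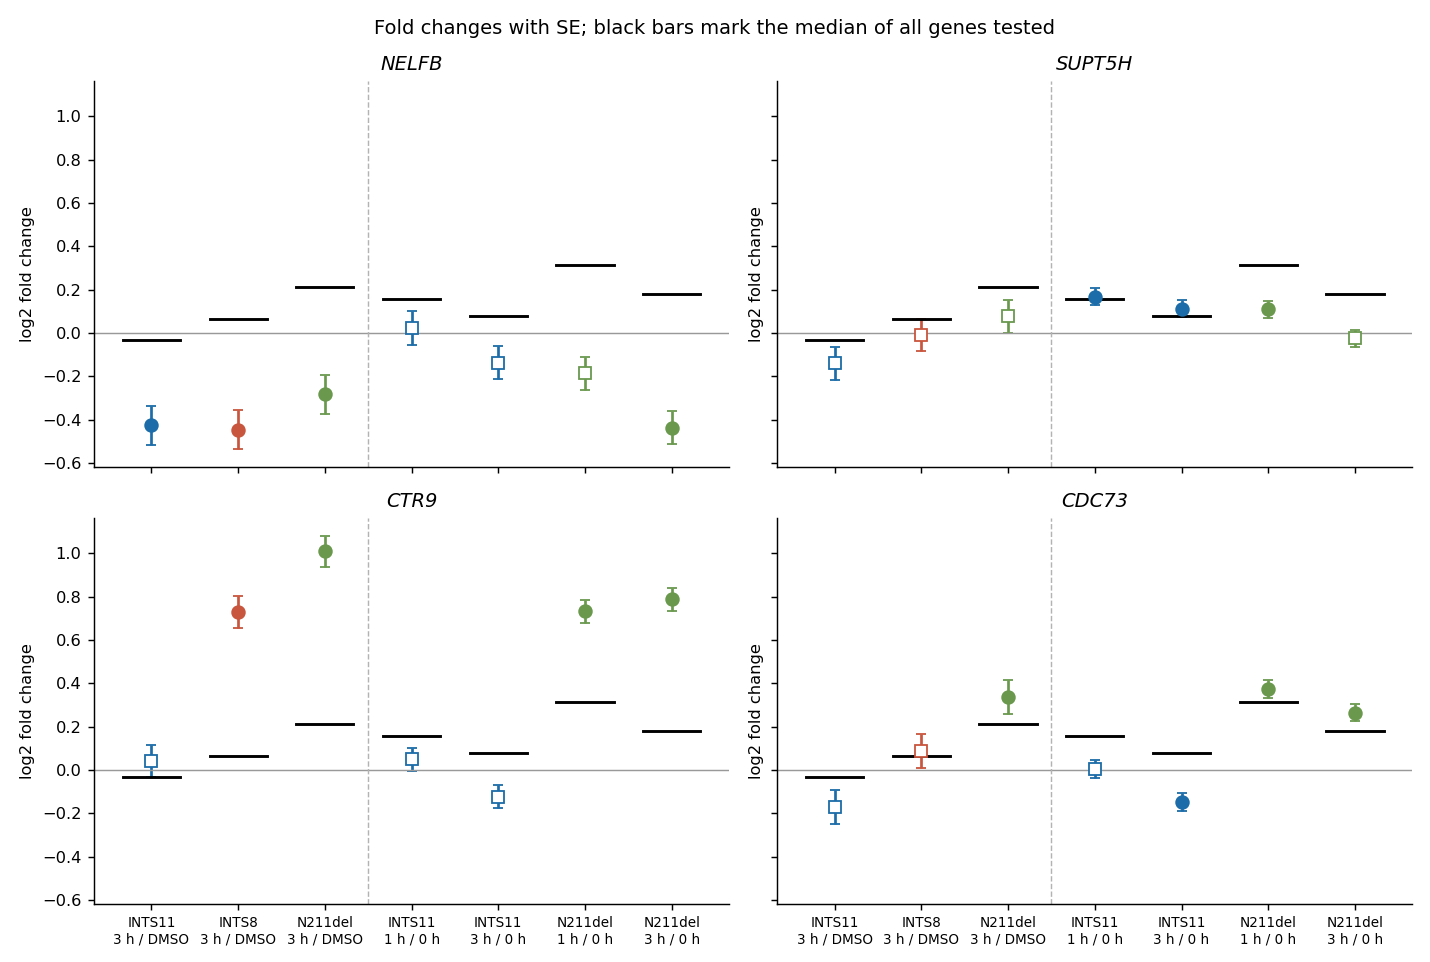
Log2 fold change (y axis) of each gene in the 7 treatment comparisons (x axis), with bars of 1 SE, filled circles where the limma adjusted p was under 0.05, open squares where it was not, and black bars at the median of all genes tested. NELFB lies below the black bar in all 7, and CTR9 reaches 0.73 to 1.01 in the INTS8 and N211del comparisons.

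CDC73, the other PAF gene among the 4 genes of the set, rose in the N211del line by a little more than the median gene. After 3 h of dTAG13 in batch 1 that line had 21.6 and 25.4 units per kb, against 18.6 and 18.4 in DMSO. The log2 fold change was 0.34 ± 0.08 (limma adjusted p = 0.000935), and 0.45 or 0.22 without replicate 1 or replicate 2 of the dTAG13 group. In batch 2 it had 22.3 and 23.3 at 0 h, 29.0 and 30.2 at 1 h, and 27.4 and 27.5 at 3 h, with log2 fold changes of 0.37 ± 0.04 (limma adjusted p = 2.37e-05) and 0.27 ± 0.04 (0.000326). The groups did not overlap in any of these comparisons. With 2 libraries a group this also occurred without a call, as for CDC73 in INTS8-dTAG cells (limma adjusted p = 0.346). The share of all genes without overlap was not counted. Relative to the median gene the increases were 0.12, 0.06 and 0.08. With libraries centred, only that at 3 h in batch 2 passed (0.07, limma adjusted p = 0.043). CDC73 belongs to the longest of 4 equal classes of gene length, whose median log2 fold changes were 0.28, 0.38 and 0.21 in these comparisons, and with libraries corrected for their trend with gene length CDC73 changed by -0.02, -0.06 and -0.01, none of which passed.

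In the other lines CDC73 was not called higher. INTS8-dTAG cells had 30.1 and 28.7 units per kb with dTAG13, against 27.4 and 27.8 with DMSO (0.09 ± 0.08, limma adjusted p = 0.346). INTS11-dTAG cells had 25.8 and 25.6 with dTAG13, against 29.3 and 28.5 with DMSO, without overlap (-0.17 ± 0.08, limma adjusted p = 0.0921). That decrease passed with libraries centred (0.017) and without replicate 1 or replicate 2 of the N211del dTAG13 group (0.0145 and 0.0146). In batch 2 INTS11-dTAG cells had 21.9 and 21.1 at 0 h, 22.1 and 21.1 at 1 h, and 19.7 and 19.2 at 3 h. CDC73 was level at 1 h (0.00 ± 0.04, limma adjusted p = 0.926) and lower at 3 h (-0.15 ± 0.04, 0.013; 19.3% of genes called lower). With libraries centred both times were called lower, at -0.15 (limma adjusted p = 0.0013) and -0.20 (0.000252). On the deposited scale the call at 3 h was lost without replicate 1 of 0 h (0.0714) or replicate 2 of 3 h (0.0812).

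The 4 genes did not move in one direction. In batch 1 their calls were 1 lower in INTS11-dTAG cells, 1 higher and 1 lower in INTS8-dTAG cells, and 2 higher and 1 lower in the N211del line. With libraries centred the calls were 0 higher and 3 lower, 1 higher and 2 lower, and 1 higher and 2 lower. In batch 2, 1 was higher at 1 h and 1 higher and 1 lower at 3 h in INTS11-dTAG cells, and 3 were higher at 1 h and 2 higher and 1 lower at 3 h in the N211del line. With libraries centred these became 0 higher and 1 lower, 0 higher and 2 lower, 1 higher and 2 lower, and 2 higher and 2 lower. The shares of all genes called with libraries centred are not reported here, so the centred counts cannot be read against all genes. On the deposited scale the percentages called among all genes were 9.86% lower at 1 h in INTS11-dTAG cells and 49.7% higher at 3 h in the N211del line, beside those given above. The comparisons at 1 and 3 h of a line share their 0 h libraries.

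**Figure D3:**
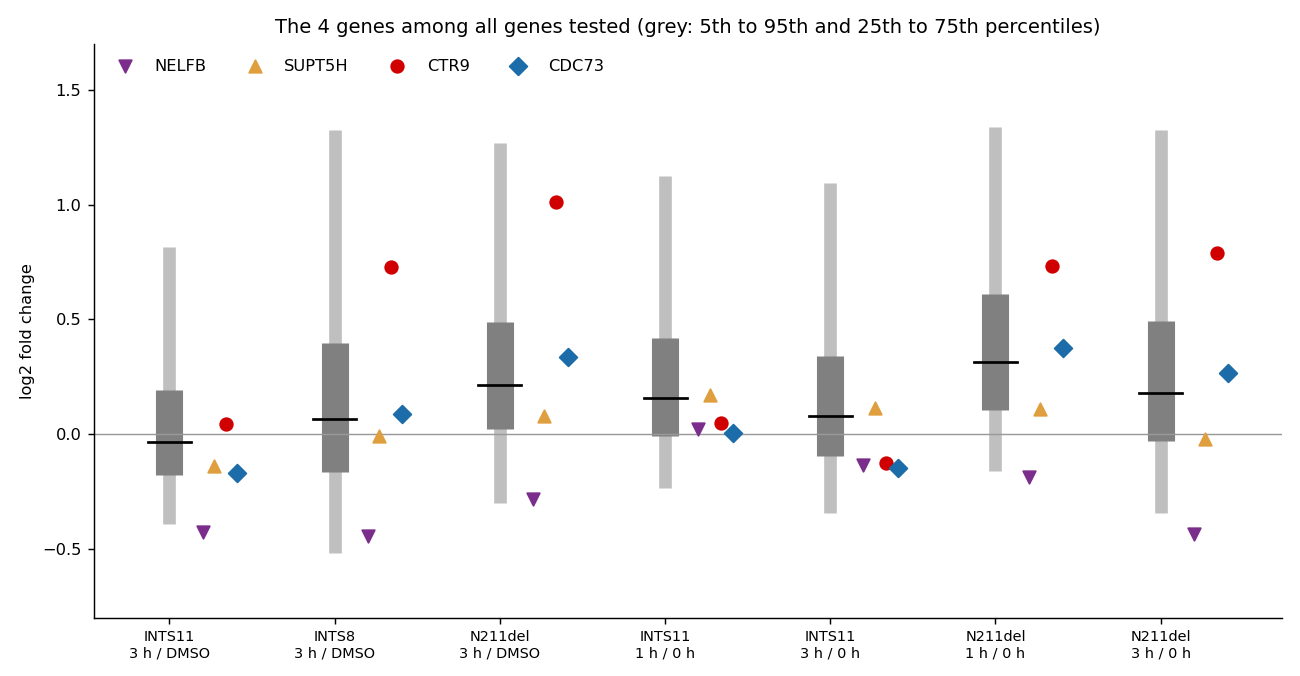
Log2 fold change (y axis) of the 4 genes (symbols) in the 7 treatment comparisons (x axis) beside the spread of all genes tested, drawn as the 5th to 95th (light grey) and 25th to 75th percentile (dark grey) with the median in black. NELFB lies near the 5th percentile in the 3 comparisons of batch 1 and the 2 N211del comparisons of batch 2, with 3.42% to 6.89% of genes lower, and CTR9 lies above the 75th in the INTS8 and N211del lines.

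Whether the lines differed in their response was tested directly. CTR9 responded more in the INTS8 line than in the INTS11 line, by 0.69 ± 0.10 on the log2 scale (limma adjusted p = 2.66e-05; 19.4% of genes called higher in this test). The N211del line also exceeded the INTS11 line, by 0.97 ± 0.10 in batch 1 (4.09e-07 by limma; 43.7% called higher and 4.8% lower), by 0.68 ± 0.07 at 1 h in batch 2 (9.36e-05; 39.3% higher and 9.24% lower) and by 0.91 ± 0.07 at 3 h (1.5e-05; 35.8%). CTR9 lay above 91.6% to 96.5% of genes in these 4 tests. CDC73 differed the same way between the N211del and INTS11 lines, by 0.50 ± 0.11 in batch 1 (limma adjusted p = 0.0011), 0.37 ± 0.06 at 1 h (0.000691) and 0.41 ± 0.06 at 3 h (0.000333). With libraries centred these differences of CDC73 were 0.21, 0.17 and 0.27 and passed (limma adjusted p = 0.0169, 0.00511 and 0.00042).

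NELFB fell further in the N211del than in the INTS11 line at 3 h of batch 2, by -0.30 ± 0.11 (limma adjusted p = 0.0448; 15.2% of genes called lower). This call was lost without replicate 1 (0.107) or replicate 2 (0.076) of the INTS11 0 h group, replicate 1 of its 3 h group (0.144), replicate 2 of the N211del 0 h group (0.142), or replicate 1 (0.0814) or replicate 2 (0.0996) of its 3 h group. In batch 1 NELFB did not pass in any test of a difference between lines, with a 95% interval of -0.28 to 0.24 for the INTS8 line minus the INTS11 line. SUPT5H passed in none of the 5 tests on the deposited scale. With libraries centred, the change of SUPT5H in batch 2 was more negative in the N211del than in the INTS11 line. The difference was -0.25 at 1 h (limma adjusted p = 0.00412) and -0.28 at 3 h (0.00212). NELFB also fell further in the N211del line with libraries centred, by -0.41 at 1 h (limma adjusted p = 0.0192) and -0.44 at 3 h (0.0113). On the deposited scale SUPT5H also passed for N211del minus INTS11 in batch 1 without replicate 1 of the N211del dTAG13 group (0.29, limma adjusted p = 0.0164) and at 3 h of batch 2 without replicate 1 of the INTS11 0 h group (-0.17, 0.0322). The N211del and INTS8 lines did not differ for any of the 4 genes by the test (2.01% of genes called lower and 9.04% higher), with 0.28 ± 0.10 for CTR9 (limma adjusted p = 0.0706; 95% interval 0.07 to 0.49) and 0.25 ± 0.11 for CDC73 (0.127; 0.02 to 0.48). Without replicate 1 of the N211del dTAG13 group both passed, at 0.35 for CTR9 (limma adjusted p = 0.00755) and 0.36 for CDC73 (0.00762). Without replicate 2 of that group neither passed, at 0.21 for CTR9 (limma adjusted p = 0.113) and 0.13 for CDC73 (0.31).

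The lines also differed before treatment. Between the INTS8 and INTS11 lines in DMSO none of the 4 genes was called (26.8% of genes called higher, 3.91% lower), but with libraries centred SUPT5H was lower in the INTS8 line (-0.28, limma adjusted p = 0.00059), as was CDC73 (-0.17, 0.00856). In DMSO the N211del line had less CTR9 than the INTS8 line, 15.9 ± 0.20 against 23.1 ± 0.12 units per kb (SD, n = 2 each; log2 fold change -0.53 ± 0.07, limma adjusted p = 3.16e-06). CDC73 was lower there too, at 18.5 ± 0.18 against 27.6 ± 0.30 (-0.58 ± 0.08, limma adjusted p = 2.88e-06). In this comparison 58.7% of genes were called lower and 5.03% higher, and the median gene changed by -0.30, and with libraries centred the differences were -0.22 (0.00274) and -0.26 (0.00069), while NELFB (0.34, 0.0224) and SUPT5H (0.38, 0.000171) came out higher. CTR9 in the treated N211del libraries, 32.2 ± 2.29 units per kb, started from a lower control than the treated INTS8 libraries at 38.3 ± 0.37. At 0 h in batch 2 the control level of CTR9 was 20.2 ± 1.27 units per kb for N211del and 19.2 ± 0.64 for INTS11 (SD, n = 2 each), a difference that missed the test (0.07 ± 0.05, limma adjusted p = 0.251). NELFB and SUPT5H were higher in the N211del line at 0 h, by 0.26 ± 0.08 (limma adjusted p = 0.0143) and 0.26 ± 0.04 (0.000241), where 38.4% of genes were called higher and 31.6% lower. That of NELFB was lost without replicate 1 of the INTS11 0 h group (0.065) or replicate 2 of the N211del 0 h group (0.109).

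From 1 to 3 h, 3 of the 8 gene and line combinations were called lower on the deposited scale, and none of these held with libraries centred. CDC73 in INTS11-dTAG cells changed by -0.15 ± 0.04 (limma adjusted p = 0.0382; 15.1% of genes called lower). In the N211del line NELFB changed by -0.25 ± 0.08 (limma adjusted p = 0.0312; 35.0% called lower and 2.2% higher) and SUPT5H by -0.13 ± 0.04 (0.0248). Centred, they were -0.05 (limma adjusted p = 0.3), -0.10 (0.449) and 0.02 (0.745). Leaving out replicate 2 of 1 h, or replicate 1 or replicate 2 of 3 h, of the N211del line left 0 of the 3 calls.

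Other genes of the elongation machinery were followed as 58 symbols in 4 lists, of which 29 were tested. On the deposited scale 3 were higher and 10 lower in INTS11-dTAG cells, 4 and 6 in INTS8-dTAG cells and 9 and 0 in the N211del line of batch 1. In batch 2, 7 were higher and 2 lower at 1 h and 5 and 10 at 3 h in INTS11-dTAG cells, and 18 and 0 at 1 h and 10 and 5 at 3 h in the N211del line. Read against all genes, the shares of these 29 called higher were 10.3% against 19.4%, 13.8% against 34.6% and 31.0% against 48.5% in batch 1, 24.1% against 46.0% and 17.2% against 36.0% in INTS11-dTAG cells of batch 2, and 62.1% against 66.0% and 34.5% against 49.7% in the N211del line. The shares called lower were 34.5% against 19.8%, 20.7% against 21.0%, 0% against 7.1%, 6.9% against 9.86%, 34.5% against 19.3%, 0% against 4.92% and 17.2% against 13.8%, in the same order. Their median log2 fold change lay below that of all genes in each comparison, for example 0.09 against 0.21 in the N211del line of batch 1 and 0.15 against 0.31 at 1 h. With libraries centred the split turned, to 2 higher and 15 lower in the N211del line of batch 1 and 2 and 18 at 1 h in batch 2, with 3 and 15, 4 and 15, 4 and 18, 5 and 19 and 4 and 18 in the other comparisons in the order above. The shares of all genes called with libraries centred are not reported here, so these counts cannot be read against all genes.

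In the list of P-TEFb and its regulators, 5 of 13 genes were tested, and 2 were higher in each comparison (40% of those tested, against 19.4% to 66.0% of all genes). HEXIM1, which holds P-TEFb inactive, rose in all 7 comparisons, also with libraries centred. It averaged 349 ± 9.95 units per kb in treated INTS8-dTAG cells and 123 ± 3.12 in DMSO (SD, n = 2 each; log2 fold change 1.501 ± 0.07, limma adjusted p = 1.15e-14). The N211del line averaged 322 ± 6.24 with dTAG13 and 119 ± 10.73 with DMSO (1.44 ± 0.07, limma adjusted p = 3.6e-14), and INTS11-dTAG cells averaged 193 ± 0.78 with dTAG13 and 98.2 ± 4.29 with DMSO (0.97 ± 0.07, 4.49e-10). In batch 2 its log2 fold changes were 0.73 and 0.78 at 1 and 3 h in INTS11-dTAG cells and 1.41 and 1.53 in the N211del line. BRD2, a bromodomain protein of acetylated chromatin, was called higher in all 7 on the deposited scale, by 0.29 to 0.45, but with libraries centred it missed in the N211del line of batch 1 (0.09, limma adjusted p = 0.307) and at 1 h of batch 2 (0.07, 0.0858). Corrected for gene length it missed in the N211del line of batch 1 (0.06, limma adjusted p = 0.499), at 1 h (-0.0058, 0.89) and 3 h (0.05, 0.246) in that line and at 3 h in INTS11-dTAG cells (0.03, 0.491). In batch 1 BRD2 was also lost in INTS11-dTAG cells without replicate 1 of DMSO (0.151) or replicate 1 of dTAG13 (0.115), and in the N211del line without replicate 2 of DMSO (0.0517) or replicate 2 of dTAG13 (0.111).

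In the list named for the super elongation complex, of which ICE1 is not a subunit, 5 of 12 genes were tested. In the N211del line at 3 h of batch 1 and at 1 h of batch 2, 3 were higher and 0 lower. These 3 were 60% of those tested, against 48.5% and 66.0% of all genes. INTS11-dTAG cells of batch 1 had 0 higher and 3 lower (60%, against 19.8% of all genes called lower). INTS8-dTAG cells had 1 higher (20%, against 34.6%) and 2 lower (40%, against 21.0%). The N211del line at 3 h of batch 2 had 2 higher (40%, against 49.7%) and 2 lower (40%, against 13.8%). MLLT1 was called lower in 3 of the 7 comparisons and higher in 0. AFF1, a scaffold of the complex, was higher in the INTS8 line (0.30 ± 0.08, limma adjusted p = 0.0029) and in the N211del line (0.44 ± 0.08, 6.03e-05). At 1 and 3 h of batch 2 the N211del line gave 0.60 ± 0.04 and 0.37 ± 0.04. All 4 increases passed with libraries centred. In INTS11-dTAG cells AFF1 changed by -0.05 ± 0.08 (limma adjusted p = 0.655), 0.10 ± 0.04 (0.0591) and -0.04 ± 0.04 (0.439). ELL, an elongation factor of that complex, was lower in INTS11-dTAG cells of batch 1 (-0.49 ± 0.09, limma adjusted p = 0.000303), but changed there by -0.05 ± 0.05 at 1 h (0.435) and -0.01 ± 0.05 at 3 h (0.897) of batch 2. In the list of other PAF subunits and histone chaperones 6 of 10 symbols were tested. WDR61 and SKIC8 in that list name the same gene. At 1 h in the N211del line 4 were higher (66.7%, against 66.0% of all genes) and 0 lower. INTS11-dTAG cells of batch 1 had 0 higher and 2 lower (33.3%, against 19.8% of all genes called lower). LEO1, a PAF subunit, was lower in those cells (-0.39 ± 0.08, limma adjusted p = 0.000673), at 15.9 ± 1.03 units per kb with dTAG13 and 20.7 ± 0.92 with DMSO (SD, n = 2 each). In batch 2 the same line gave 0.04 ± 0.06 at 1 h (limma adjusted p = 0.609) and -0.10 ± 0.06 at 3 h (0.204), neither of which passed. LEO1 was called higher in the N211del line at 1 h (0.33 ± 0.06, limma adjusted p = 0.00113) and 3 h (0.19 ± 0.06, 0.0255), which turned to -0.02 and -0.01 with libraries centred; the call at 3 h was lost without replicate 1 (0.073) or replicate 2 (0.085) of 0 h or replicate 1 of 3 h (0.131).

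In the list of further elongation factors 13 of 23 were tested. At 1 h in the N211del line 9 were higher (69.2%, against 66.0% of all genes) and 0 lower. At 3 h in INTS11-dTAG cells of batch 2, 2 were higher (15.4%, against 36.0% of all genes) and 6 lower (46.15%, against 19.3%). TCEANC, a protein with a TFIIS-like domain, had 6.38 ± 0.046 units per kb at 1 h and 6.75 ± 1.1 at 3 h in INTS11-dTAG cells of batch 2, with 2.41 ± 0.14 at 0 h (SD, n = 2 each; log2 fold changes 1.37 ± 0.19 and 1.44 ± 0.19, limma adjusted p = 0.000238 and 0.000206). In batch 1 the same line gave 0.51 ± 0.16 (limma adjusted p = 0.0211), a call lost without replicate 1 of DMSO (0.155) or replicate 1 of dTAG13 (0.0952). RPRD2, of a family that binds the tail of the polymerase, was called higher in 6 of 7 comparisons on the deposited scale, for example by 0.52 at 1 h in INTS11-dTAG cells (0.37 with libraries centred, limma adjusted p = 0.000445) and 0.41 at 1 h in the N211del line (0.06, 0.317), where a length correction gave -0.0082. Whether the lines differed for these further genes was not tested.

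**Figure D4:**
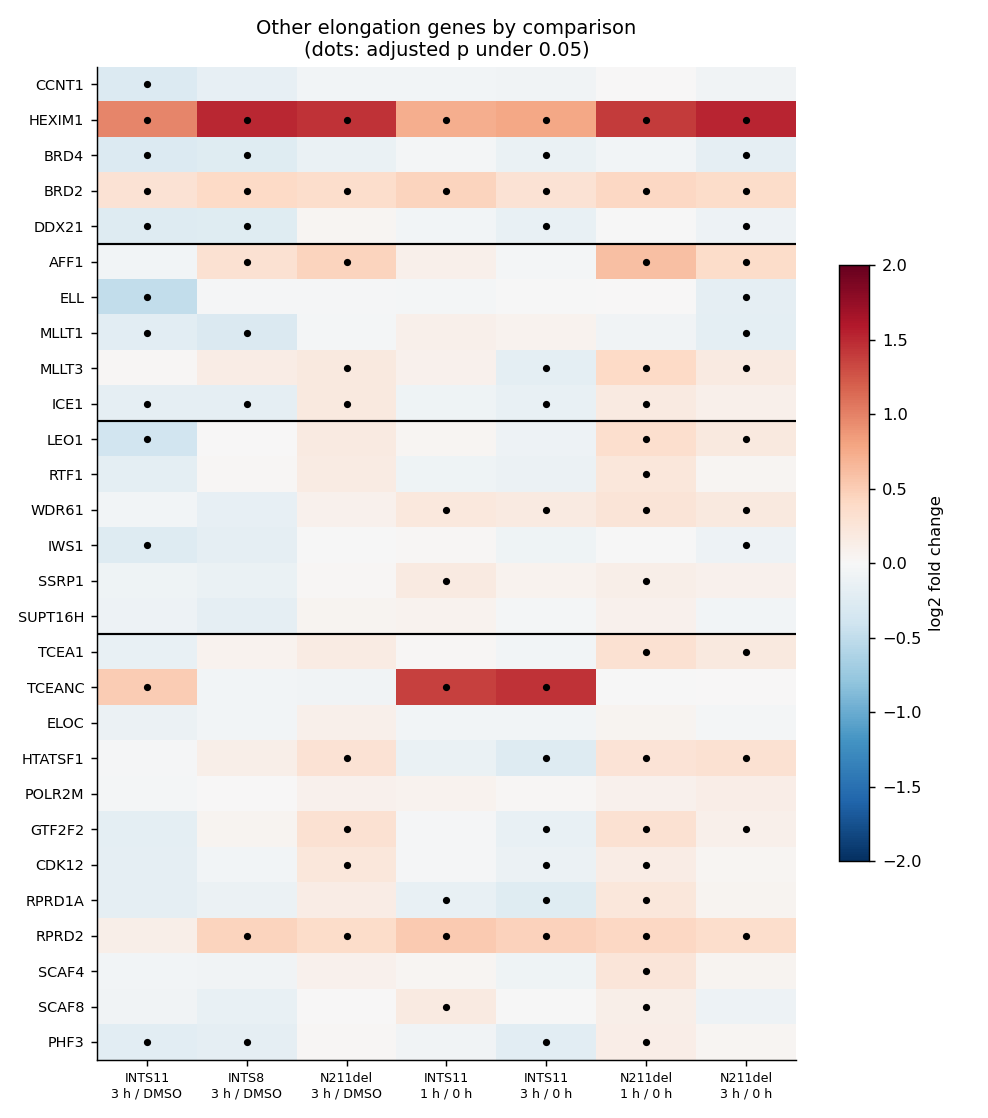
Log2 fold change (colour) of further elongation genes (rows) in the 7 treatment comparisons (columns), with dots where the limma adjusted p was under 0.05 on the deposited scale and lines between the 4 lists. HEXIM1 is red in every column, at 0.73 to 1.53, and TCEANC is red with a dot in the 3 INTS11 columns, at 0.51 to 1.44.

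CTR9 had the largest called change of the 4 genes, and its course over the 24 libraries was most like those of TAF4B, ADAM22 and SIRT1. The likeness was Pearson's r of log2 values centred on each batch mean, over 6442 genes, at 0.986, 0.983 and 0.978; libraries of a group share their treatment and line, so r is a description only. TAF4B, a subunit of a TFIID form, changed by 1.15 in the INTS8 line and 1.37 in the N211del line of batch 1, with 0.22 in the INTS11 line. ADAM22, a membrane protein of the ADAM family, changed by 1.24, 1.497 and 0.22, and SIRT1, an NAD-dependent deacetylase, by 0.81, 0.96 and -0.14, in the same order.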

How the data were processed

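TT-seq values of 24 libraries, 2 in each of 12 groups, were used as deposited. Samples were assigned by titles and characteristics, since the protocol text names 3 h for every sample. Tools in the submitters' processing notes are STAR 2.7.5c, Trim Galore 0.6.6, DESeq2 1.26.0, Picard 2.23.3 and SAMtools 1.9; mm10 and hg19 stand there as builds without a stated use. Per the file headers the values deposited by the authors are FPKM. They behave as whole numbers per kilobase of gene length (median 33609.5 bp, so introns are included), in batch 2 times 1 factor per library (0.565 to 0.753), and 99.7 to 100% of batch 2 values and 100% of batch 1 values came out whole within 0.02 units. A factor applied before rounding would not be seen in batch 1, so these are called units and not reads, and intervals of units cover counting error only.

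Batches were fitted apart with limma 3.58.1 in R 4.3.3 on log2(value + 0.1), which understates changes of low genes, for genes with a mean of at least 0.1 (6579 in batch 1, 6950 in batch 2). Each group had 1 mean, the spread was shared by the 12 libraries of a batch with trended, robust empirical Bayes, and p-values are two-sided and Benjamini-Hochberg adjusted over all genes within each of 17 contrasts, called at 0.05. They measure the spread between these libraries. With units taken as counts, both libraries agreed within counting noise in 6 of the 12 groups. Such libraries were kept as pairs, and averaged as an alternative. In the N211del DMSO pair the spread was smaller than such noise, with a chi-square per gene of 0.88. Replicate numbers did not mark pairs across groups. The procedure was tested on simulated data.

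The genes, lists and comparisons were chosen with earlier results of these data known. Named genes were the listed genes of the rule, the 2 called genes of each list with the largest change in a treatment comparison, of which a part is given, and the 3 genes most like the one with the largest change, leaving out non-coding and uncharacterised loci. ELL, LEO1, AFF1, BRD2 and TCEANC values in comparisons beyond that rule are given beside them, and a gene of the lists is not reported here by itself. Of 7223 symbols 7169 matched the symbol table. Alternatives were pseudocounts of 0.01 and 1, no filter or a mean of 1, libraries centred on their medians, a block for replicate number, a fit restricted to the contrast's own libraries, a loess correction for gene length, averaged pairs and each library left out; a library left out leaves a group of 1 that is assumed to vary like the others. Voom on the whole-number units was added after seeing the data. Python 3.11.15, numpy 2.4.6, pandas 2.3.3 and matplotlib 3.10.9 were used.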

Additional observations from a re-analysis of the deposited data

Results flagged for a closer look

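The responses of 3 of the 4 genes differed between lines by the test of the difference itself, the interaction contrast in limma. Calls were common among all genes in these tests. For the INTS8 line minus the INTS11 line, 19.4% of genes were called higher and 6.0% lower. For the N211del line minus the INTS11 line these shares were 43.7% and 4.8% in batch 1. In batch 2 they were 39.3% and 9.24% at 1 h, and 35.8% and 15.2% at 3 h. For CTR9 the INTS8 line minus the INTS11 line gave 0.69 on the log2 scale (limma adjusted p = 2.66e-05), and the N211del line minus the INTS11 line gave 0.97 in batch 1 (4.09e-07), 0.68 at 1 h in batch 2 (9.36e-05) and 0.91 at 3 h (1.5e-05). For CDC73 the N211del line minus the INTS11 line gave 0.50 in batch 1 (limma adjusted p = 0.0011), 0.37 at 1 h (0.000691) and 0.41 at 3 h (0.000333). For NELFB the N211del line minus the INTS11 line gave -0.30 at 3 h of batch 2 (limma adjusted p = 0.0448). With single libraries left out this difference ran from -0.37 to -0.22, and the call was lost in some of these fits. In batch 1 the same difference for NELFB at 3 h was 0.14 (limma adjusted p = 0.361), and -0.15 (0.464) with libraries centred. The controls of the 2 batches differed in kind, DMSO in batch 1 and 0 h in batch 2.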

How the results depend on the processing

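Of 680 recomputed values of the 4 genes, 589 kept their direction and side of the threshold, 38 gained the threshold, 20 lost it and 33 turned sign; with single libraries left out, 755 of 816 kept both, 31 lost the threshold, 18 gained it and 12 turned sign. With libraries centred the sign changes of values called in either fit were SUPT5H in the N211del line (-0.18 in batch 1, -0.24 at 1 h, 0.020 from 1 to 3 h) and CDC73 at 1 h in INTS11-dTAG cells (-0.15). With the length correction these were CDC73 in the INTS8 line (-0.12) and the N211del line (-0.018 in batch 1, -0.058 at 1 h, -0.0060 at 3 h), SUPT5H in the N211del line (-0.19, -0.25 at 1 h, 0.0020 from 1 to 3 h) and at 3 h in INTS11-dTAG cells (-0.037), all 4 genes at 1 h in INTS11-dTAG cells (NELFB -0.26, SUPT5H -0.068, CTR9 -0.19, CDC73 -0.17), and CTR9 in INTS8 against INTS11 DMSO (-0.16). Values called in neither fit turned sign when centred for CDC73 in the INTS8 line (-0.015), NELFB (-0.13) and CTR9 (-0.10) at 1 h in INTS11-dTAG cells, SUPT5H in the differences INTS8 minus INTS11 (-0.0068), N211del minus INTS8 (-0.070) and N211del minus INTS11 (-0.077) of batch 1, NELFB in the last of these (-0.15), SUPT5H in INTS11-dTAG cells (0.045) and CDC73 in the N211del line (0.045) from 1 to 3 h, and CTR9 in INTS8 against INTS11 DMSO (-0.090). Length-corrected, such values were CTR9 in INTS11-dTAG cells of batch 1 (-0.0036), SUPT5H in N211del minus INTS8 (-0.046) and N211del minus INTS11 (-0.0090), NELFB in N211del minus INTS11 (-0.0545), and SUPT5H in INTS11-dTAG cells (0.031) and CDC73 in the N211del line (0.052) from 1 to 3 h. The cause was not tested.

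Genes called in INTS11-dTAG cells of batch 1 numbered 1, and 3 when centred, with only the contrast's libraries or length-corrected. With length correction 4 in place of 2 were called in the INTS8 line and 3 in place of 1 at 1 h in INTS11-dTAG cells. At 3 h there 2 were called, 1 with only the contrast's libraries and 0 with averaged pairs. From 1 to 3 h, 3 were called, 1 when centred or length-corrected, 0 with averaged pairs and 5 with voom. Between control groups 4 were called, and 8 when centred or length-corrected. Shares of all genes called under these other settings are not reported here. With single libraries left out, calls ran from 1 to 2 in INTS11-dTAG cells, 2 to 2 in the INTS8 line and 2 to 3 in the N211del line of batch 1, 1 to 1 and 0 to 3 at 1 and 3 h in INTS11-dTAG cells, 2 to 4 and 3 to 3 in the N211del line, 7 to 12 between responses, 0 to 4 from 1 to 3 h and 3 to 5 between control groups. Values that turned sign without a library ran from -0.081 to 0.063 for SUPT5H in the INTS8 line, -0.066 to 0.11 for NELFB and -0.026 to 0.036 for CDC73 at 1 h in INTS11-dTAG cells, -0.15 to 0.11 for NELFB in INTS8 minus INTS11, -0.0026 to 0.11 for CTR9 from 1 to 3 h in the N211del line, -0.11 to 0.016 for NELFB and -0.0011 to 0.025 for CTR9 in INTS8 against INTS11 DMSO, and -0.028 to 0.093 for NELFB in N211del against INTS8 DMSO.

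Of the further elongation genes, 18 of 490 recomputed values reversed. Centred, these were MLLT3 in the N211del line of batch 1 (-0.059), LEO1 (-0.0195), WDR61 (-0.086) and TCEA1 (-0.048) at 1 h and LEO1 at 3 h (-0.0052) in that line. Length-corrected, they were MLLT3 (-0.19) and GTF2F2 (-0.0585) in batch 1, BRD2 (-0.0058), MLLT3 (-0.0595), LEO1 (-0.029), WDR61 (-0.14), TCEA1 (-0.071) and RPRD2 (-0.0082) at 1 h and LEO1 (-0.0315) and WDR61 (-0.084) at 3 h in the N211del line, and WDR61 (-0.080) and SSRP1 (-0.14) at 1 h and WDR61 (-0.0635) at 3 h in INTS11-dTAG cells.

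Same-numbered replicates did not deviate together (r of -0.105 to 0.082 in batch 1 and -0.079 to 0.042 in batch 2), so the block pairs libraries by number only. With the replicate block 4 genes were called at 1 h in the N211del line, NELFB at -0.19 (limma adjusted p = 0.0478) joining 3, and 2 in place of 3 from 1 to 3 h, CDC73 at -0.15 (0.0555) being lost. With 2 libraries a group, SEs had a median of 0.09 for batch 1 genes and 0.06 for those of batch 2.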
